A study of Homo sapiens with 6 samples.

Results

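The mitochondrial ribosomal proteins build the ribosome that sits inside mitochondria. Their genes were taken as the protein-coding rows of the count table whose symbol is MRPL or MRPS followed by a number and at most 1 letter, and 76 of 57820 rows met this rule. By symbol, 48 encode large subunit proteins (MRPL) and 28 encode small subunit proteins (MRPS). All 76 passed the filter on low counts and were among the 19676 genes tested. The reference holds 78 symbols of this form, and the other 2, MRPL45 and MRPS21, were not analysed here because no row matched their identifiers.

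RNA was measured in HEK293T, an established line of human embryonic kidney cells that carries the SV40 large T antigen. Every library came from cells given RfxCas13d, an effector that cuts RNA matched by its guide, the crRNA. The effector was present throughout, and 3 libraries had a non-targeting crRNA (NT, the negative control) and 3 had a crRNA against the mRNA of mCherry, a red fluorescent protein foreign to human cells (TAR). The labels call the libraries biological replicates, and the sources used here give neither the way the effector was introduced nor the presence of an mCherry mRNA.

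The mitoribosome translates the few mRNAs encoded by mitochondrial DNA, all of which specify subunits of the respiratory chain and ATP synthase. Its rRNAs are mitochondrial transcripts, but every one of its proteins is encoded in the nucleus, made in the cytosol and imported. Compared with its bacterial ancestor it has lost rRNA and gained proteins, so that homologs of bacterial ribosomal proteins stand beside proteins found only in mitochondria. The small subunit binds the mRNA and decodes it, and the large subunit joins amino acids and delivers the new chain to the inner membrane.

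Library totals lay between 21321850 and 25906275 counts. The genes VIM, KRT8, KRT18, CDH2, NEFM, PAX2 and XRCC5, known to be expressed in HEK293T, were detected in every library, while the blood markers PTPRC and HBB, the fibroblast marker DCN and the hepatocyte markers TTR and SERPINA1 had no count in any. Of the other markers of those cell types, the collagen genes COL1A1 and COL3A1 stood at 12.3 to 17.9 and 1.96 to 3.27 CPM, and the rest, CD14 among them, below 1 CPM in every library. NT replicate 1 stood apart: its MT-RNR1 and MT-RNR2 levels, the mitochondrial rRNAs, were 31.4 and 34.6 CPM (counts scaled for library size), against at most 7.26 and 10.3 CPM in any other library. The libraries also fell into sets by the share of 7SK, a small nuclear RNA without a poly(A) tail. It was below 1% of counts in NT replicate 1 (0.516%) and TAR replicates 1 (0.716%) and 2 (0.439%), and between 1.15% and 1.37% in the other 3.

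The mitoribosomal protein genes were expressed at moderate and mostly similar levels in both groups. Levels between genes were compared as CPM per kilobase of transcript, where the length is the median over a gene's protein-coding transcripts. The median gene had 36.3 CPM per kb in the NT and 35.2 CPM per kb in the TAR libraries. The interquartile range in NT was 21.3 to 53.3 CPM per kb, a 2.51-fold span. Large subunit genes had a median of 37.7 and small subunit genes one of 34.3 CPM per kb. Genes for the ribosomal proteins of the cytosol, of which 85 had a row, had a median of 532 CPM per kb.

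With the median transcript length, the 5 most abundant members per kilobase were genes of proteins found only in mitochondrial ribosomes. This ranking depends on the length used. With the longest transcript, only 1 of the 3 highest genes of each subunit stayed among the 3 highest. MRPL37 stood at 182.8 ± 24.9 CPM per kb (SD, n = 3) in NT and MRPL49 at 180.6 ± 27.0 (SD, n = 3), both large subunit proteins without a bacterial counterpart. MRPS25 followed with 139.4 ± 9.79 CPM per kb (SD, n = 3), ahead of MRPL42 with 130.9 ± 7.60 (SD, n = 3). MRPS27, a small subunit protein with the helical repeats typical of RNA-binding proteins of organelles, had 121.4 ± 17.2 CPM per kb (SD, n = 3). MRPS34, another mitochondrion-specific small subunit protein, had 73.9 ± 20.1 (SD, n = 3), below the bacterial homologs MRPL2 and MRPL19.

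Among homologs of bacterial proteins, MRPL2, which lies at the peptidyl transferase centre of the large subunit, was the most abundant at 89.0 ± 16.9 CPM per kb (SD, n = 3). As classes, however, the 46 listed bacterial homologs and the 30 other members had close medians of 35.9 and 39.2 CPM per kb. The second class holds every member outside that list, and so includes MRPS36, whose protein belongs to another complex. Most neighbours in the order of levels overlapped in their 3 NT values. These ranges include shifts that members share between libraries, and neighbours were not compared within each library. In 4 of 75 neighbouring pairs the 3 NT values of one gene lay wholly above those of the other, namely MRPL49 over MRPS25, MRPL53 over MRPS17, MRPL38 over MRPS24 and MRPS24 over MRPL30. The order was nearly that of the TAR libraries (Spearman's rho 0.98 across 76 genes, a description over genes that share libraries and lengths).

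The lowest members lay across other genes. MRPL30 had 0.330 ± 0.0822 CPM per kb (SD, n = 3) in NT and MRPS24 1.06 ± 0.173 (SD, n = 3), and the span from MRPL37 down to MRPL30 was 554-fold. MRPS24 is the homolog of the bacterial protein at the mRNA entry channel of the small subunit. Next came MRPL38 at 4.20 ± 0.587, MRPS17 at 5.27 ± 0.561 and MRPL53 at 7.26 ± 1.29 CPM per kb (SD, n = 3 each). All 5 overlap another protein-coding gene on the same strand in the reference annotation. Such an overlap was found for 12 of the 76 members, with a median of 11.3 CPM per kb, against 38.8 CPM per kb for the other 64.

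For the lowest pair the overlapping partners held few counts as well. URGCP-MRPS24, a joined transcript that spans MRPS24, had 0 counts in every library, and the gene ENSG00000241962 that overlaps MRPL30 had between 0.437 and 1.10 CPM. Partners of the next members differed. NIPSNAP2 (over MRPS17) and CCDC142 (over MRPL53) had NT means of 91.2 and 34.4 CPM. ENSG00000267426 (over MRPL38) had 0.18 CPM, and ENSG00000249773, also over MRPS17, 0.0433 CPM. How reads in such overlaps were counted is unknown here, so the levels of these 12 members are uncertain, and the part of the overlaps in their low levels was not tested. MRPS23, at 8.03 ± 1.84 CPM per kb (SD, n = 3) the lowest member without such a partner, has long annotated transcripts. With the longest transcript as length, 1 of the 3 highest genes of each subunit stayed among the 3 highest. Among the 3 lowest stayed 2 of the large and all 3 of the small subunit.

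**Figure D1:**
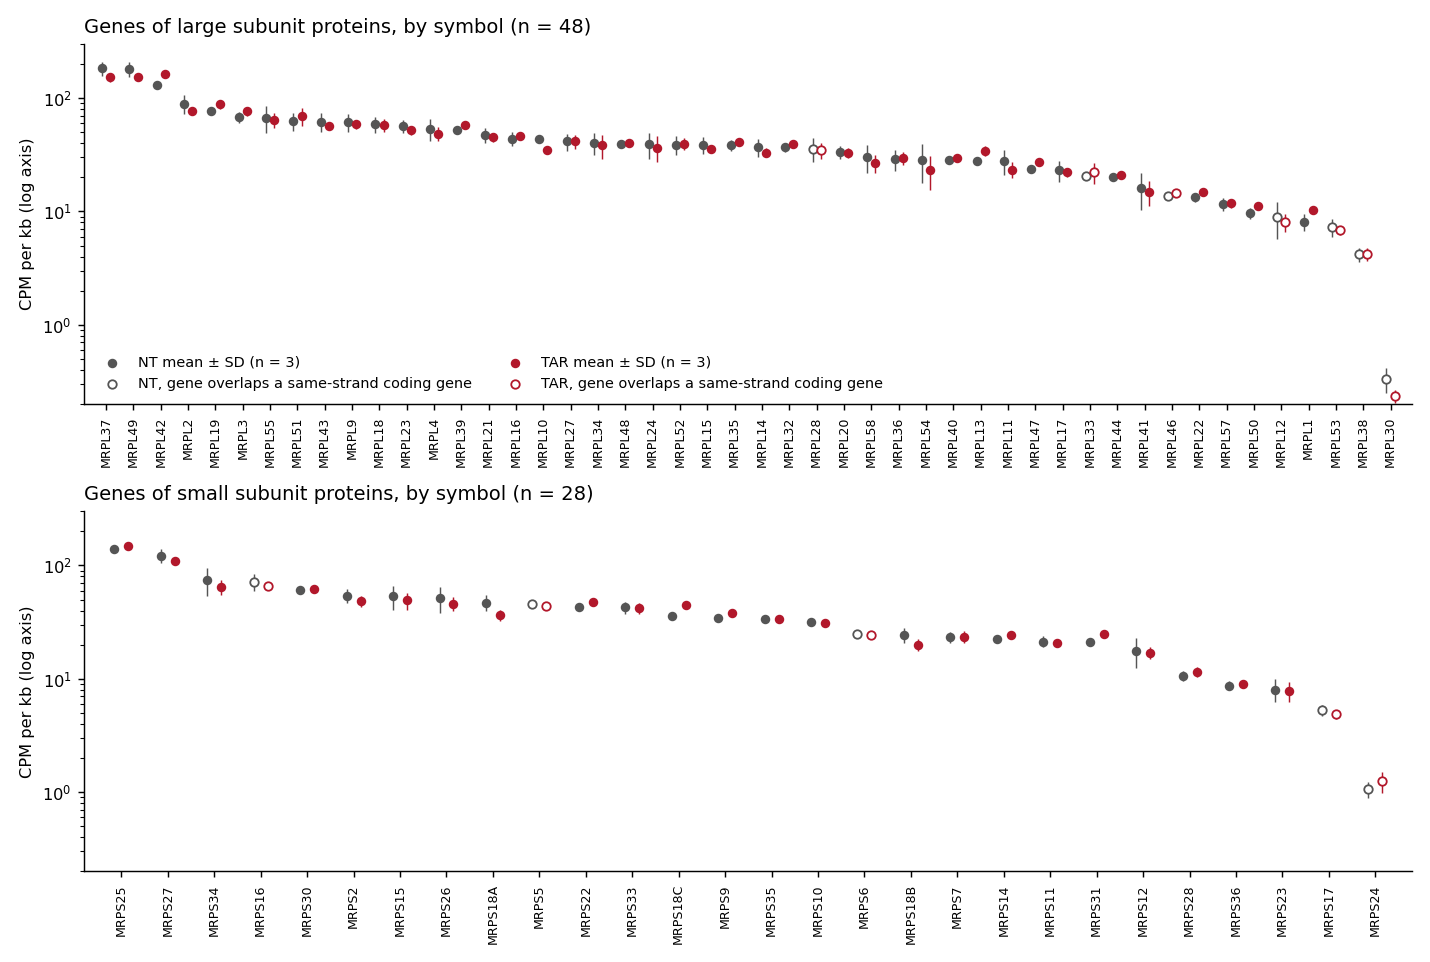
Levels of the 76 mitoribosomal protein genes as CPM per kb on a log axis, ordered within the large (top) and small (bottom) subunit by the NT mean. Points are means and bars the SD of 3 libraries, grey for NT and red for TAR, and open points mark genes that overlap a same-strand coding gene, which hold the 5 lowest places from 7.26 down to 0.330 CPM per kb.

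The crRNA against mCherry was compared with the non-targeting one to see which endogenous transcripts differ. No mitoribosomal protein gene was called at an adjusted p under 0.05 (edgeR quasi-likelihood test, Benjamini-Hochberg over all genes), and 0.0102% of all genes tested were. DESeq2 called 0 members and 0.859% of all genes, and limma-voom 0 members and 0.0102% of all genes. At an unadjusted p under 0.05, DESeq2 had 9 members (11.8%, against 13.7% of all genes) and limma-voom 11 (14.5%, against 16.2%). At an unadjusted edgeR p under 0.05, 12 of the 76 members passed, 15.8%, against 16.1% of all genes. They were 7 higher in TAR (9.21%, against 10% of all genes) and 5 lower (6.58%, against 6.09%). The members' share was close to the background in each direction.

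Fold changes were small across the whole family. Over the 76 members the log2 fold change (TAR minus NT) had a median of -0.03, with 33 above and 43 below 0, and over all genes tested one of -0.0037. The members' interquartile range was -0.12 to 0.09. Large and small subunit genes had medians of -0.03 each, with 22 of 48 and 11 of 28 above 0. Moving MRPS18A and MRPS30 to the large subunit, where their proteins sit, and leaving out MRPS36, a component of the 2-oxoglutarate dehydrogenase complex despite its symbol, left both medians at -0.03. The listed bacterial homologs had a median of -0.04 and all other members, MRPS36 included, one of 0.02.

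Summed over all members, the family took 0.337%, 0.385% and 0.390% of the counts in NT replicates 1 to 3 and 0.364%, 0.358% and 0.383% in TAR replicates 1 to 3. The groups overlapped, with NT replicate 1 lowest and NT replicate 3 highest. Means were 0.371 ± 0.0289% in NT and 0.368 ± 0.0130% in TAR (SD, n = 3 each), a difference smaller than either SD. In bulk RNA such a share cannot tell fewer cells of a kind from less RNA per cell. The large subunit genes held 1.37, 1.44 and 1.45 times the counts of the small subunit genes in NT and 1.41, 1.41 and 1.49 times in TAR. These ratios overlapped too, with means of 1.42 ± 0.0451 and 1.43 ± 0.0456 (SD, n = 3 each).

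Among members higher in TAR, MRPL42, a mitochondrion-specific large subunit protein, had the smallest p. It measured 120.1, 127.6 and 113.6 CPM in NT and 145.9, 144.4 and 157.1 CPM in TAR. All 3 TAR libraries lay above all 3 NT libraries. MRPL42 (ENSG00000198015.8) lies on chromosome 12 of GRCh38, from 93467488 to 93516213 on the plus strand. The level was 1.24-fold higher in TAR (log2 fold change 0.31 ± 0.08 SE, edgeR unadjusted p = 0.0024, adjusted p = 0.194).

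MRPS18C, a small subunit homolog of bacterial protein S18, measured 22.3, 25.8 and 23.7 CPM in NT and 31.3, 27.7 and 29.7 CPM in TAR, again without overlap. Its log2 fold change was 0.30 ± 0.10 (SE; edgeR adjusted p = 0.215). MRPL13, a bacterial-type protein of the large subunit body, had 29.9, 32.8 and 28.4 CPM in NT and 40.3, 33.3 and 38.2 CPM in TAR. Its lowest TAR library, replicate 2, was only just above its highest NT library, also replicate 2.

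MRPS31, a mitochondrion-specific protein of the small subunit, measured 31.1, 32.5 and 29.005 CPM in NT and 38.3, 34.7 and 35.8 CPM in TAR. MRPL1, the protein of the mobile L1 stalk through which used tRNAs leave, was lower overall at 13.0, 13.3 and 9.75 CPM in NT and 16.8, 14.4 and 14.9 CPM in TAR. Groups did not overlap for either gene, and NT replicate 3 was the lowest library for both. Log2 fold changes were 0.29 ± 0.10 for MRPL13, 0.23 ± 0.09 for MRPS31 and 0.35 ± 0.14 for MRPL1 (SE), with edgeR adjusted p of 0.227, 0.26 and 0.262. MRPL19 and MRPL47 complete the 7 members with an unadjusted p under 0.05, at log2 fold changes of 0.21 each.

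On the lower side MRPL10 led. MRPL10 anchors the stalk to which MRPL12 attaches and which recruits the GTPase translation factors. The gene (ENSG00000159111.8) lies on chromosome 17 of GRCh38, from 47823272 to 47831534 on the minus strand. It measured 71.0, 73.4 and 80.9 CPM in NT and 55.9, 60.1 and 63.7 CPM in TAR. Every TAR library lay below every NT library, by 1.25-fold in the fitted means (log2 fold change -0.33 ± 0.09 SE, edgeR unadjusted p = 0.00301, adjusted p = 0.195). It was the only member lower without overlap. MRPL12, its stalk partner, measured 6.40, 8.36 and 12.9 CPM in NT and 8.36, 6.79 and 9.80 in TAR, with overlapping groups, and is among the 12 members with a same-strand overlap.

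The other 4 lower members shared a pattern in which NT replicate 1 fell among the TAR libraries. MRPS18A measured 35.4, 47.1 and 47.9 CPM in NT and 32.8, 30.2 and 37.6 CPM in TAR. MRPL37 had 229.7, 283.5 and 300.3 CPM in NT and 205.9, 227.2 and 243.5 in TAR. MRPS18B and MRPL49 also overlapped between the groups, with log2 fold changes of -0.29 ± 0.12 and -0.24 ± 0.11 (SE). For MRPS18A and MRPL37 the log2 fold changes were -0.38 ± 0.13 and -0.27 ± 0.11 (SE). Adjusted p-values of these 4 genes lay between 0.216 and 0.303 (edgeR).

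**Figure D2:**
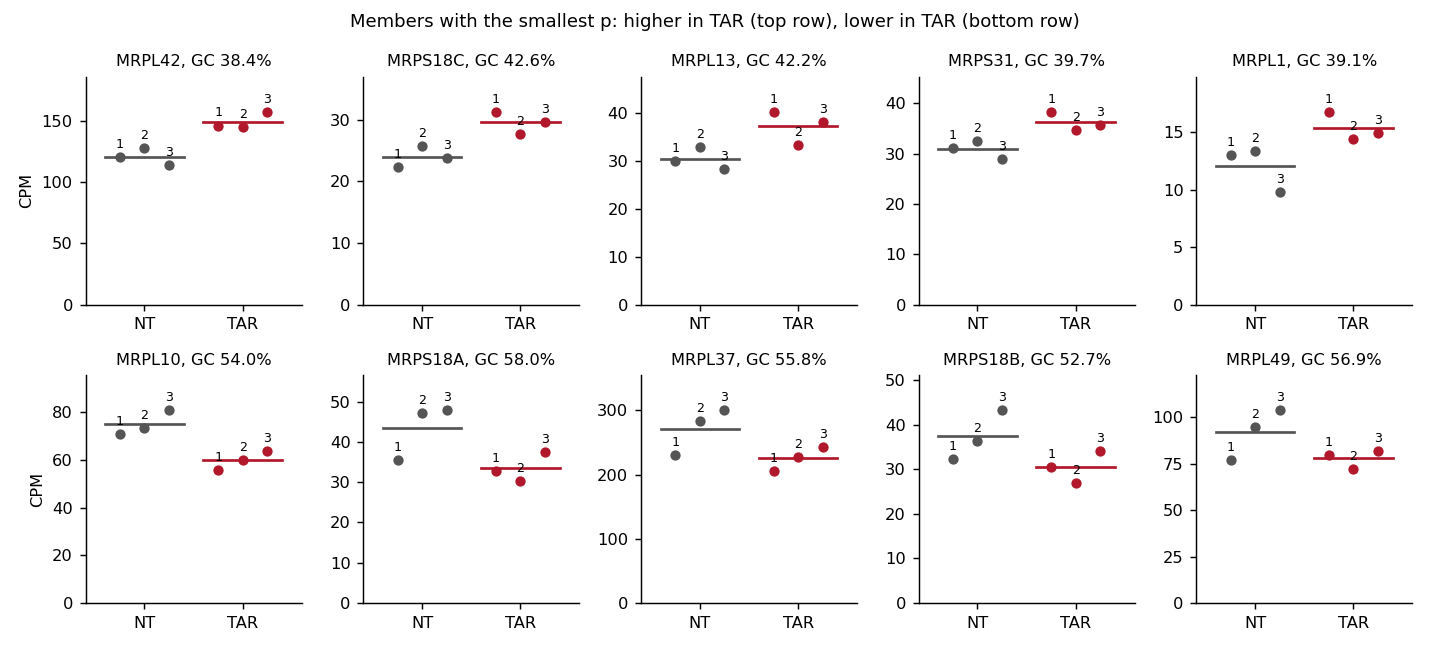
CPM of the 5 members with the smallest p in each direction, higher in TAR in the top row and lower in the bottom row, with replicate numbers on the points, group means as lines and a CPM axis that starts at 0. The top row has GC contents from 38.4% to 42.6% and the bottom row from 52.7% to 58.0%, and NT replicate 1 is the lowest NT library in all 5 panels of the bottom row.

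By the groups' ranges alone, 10 members were higher in every TAR than in every NT library, 13.2% against 12.6% of all genes. These were MRPL1, MRPL13, MRPL39, MRPL42, MRPL47, MRPL50, MRPS14, MRPS18C, MRPS22 and MRPS31. MRPL10 alone was lower in every TAR library, 1.32% of members against 9.37% of all genes. Both MRPL39 and MRPL50 are mitochondrion-specific large subunit proteins, and MRPS22 is a mitochondrion-specific protein of the small subunit.

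The 3 human paralogs of bacterial S18 differed in direction. MRPS18C replaces S18 in the small subunit, MRPS18B sits elsewhere in the small subunit, and MRPS18A is part of the large subunit. Their NT means were 36.0 CPM per kb for MRPS18C, 24.4 for MRPS18B and 47.1 for MRPS18A. The log2 difference between TAR and NT was 0.30 for MRPS18C but -0.29 for MRPS18B and -0.38 for MRPS18A, and none of the 3 was called. Their GC contents were 42.6%, 52.7% and 58.0%. After correction for GC content the log2 differences were 0.17, -0.22 and -0.24.

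Start-site regions of mitoribosomal protein genes often carry a binding motif of ETS factors such as GABPA, a known activator of nuclear genes for mitochondrial proteins. RefSeq start-site windows (GRCh38.p14, 250 bases before to 50 after the start) were found for 67 of the 76 members. The ETS motif CCGGAAG, sought on both strands, was present for 29 of 67 members (43.3%), against 21.3% of the 10879 tested coding genes with a window and 10.3% of all 35116 windows. The YY1 motif AAGATGGC was present for 20 members (29.9%), against 6.17% of the coding genes. The NRF1 motif GCGCATGCG was present for 3 members (4.48%), against 4.07% of the coding genes. None of the 3 motifs was found for 25 members, and 8 held both ETS and YY1.

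A match of letters is a description and no shown binding site. Members with the ETS motif had log2 fold changes with a median of -0.02, and members without it -0.03. For the YY1 motif these medians were 0.03 and -0.06, and for the NRF1 motif, with 3 members, 0.16 and -0.03. The stretches before the start of MRPS18A, one of the lower members, and of MRPS18C and MRPS31, among the higher ones, are printed 5′ to 3′ along the gene's strand, with the ETS motif in capitals.
MRPS18A: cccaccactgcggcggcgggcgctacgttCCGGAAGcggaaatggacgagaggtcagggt
MRPS18C: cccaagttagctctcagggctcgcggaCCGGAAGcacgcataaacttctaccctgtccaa
MRPS31: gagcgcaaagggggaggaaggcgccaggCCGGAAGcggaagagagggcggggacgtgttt
They lie at chr6:43687792-43687851 (minus strand), chr4:83455809-83455868 (plus strand) and chr13:40771191-40771250 (minus strand) of GRCh38.p14. In all 3 the motif reads CCGGAAG on the gene's strand, and it ends 25 bases before the RefSeq start in MRPS18A, 26 in MRPS31 and 216 in MRPS18C.

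The direction of a member followed the GC content of its transcripts. Of the 20 members with a GC content below 45%, 16 had a log2 fold change above 0, with a median of 0.15. Of the 22 members at 55% or more, 18 had one below 0, with a median of -0.14. The 34 members between had a median of -0.03. All genes tested showed the same gradient, with medians of 0.17, -0.02 and -0.15 in these classes.

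Across the 76 members, Pearson's r between log2 fold change and GC content was -0.53 and Spearman's rho -0.62, a description over genes that share the same 6 libraries. Over the 18893 genes tested with a known GC content, r was -0.48. Transcript length did not follow the fold change (r = 0.02 with log2 length). Each library was then corrected for its own trend with GC content. Afterwards r was 0.27 and the median log2 fold change was 0.0027, with 39 of 76 members above 0.

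After this correction 5 members had an unadjusted p under 0.05 (6.58%, against 7.08% of all genes) and none was called. MRPL10 and MRPS18A, at log2 fold changes of -0.24 ± 0.07 and -0.24 ± 0.10 (SE), were on this list as before (edgeR adjusted p = 0.653 and 0.68). MRPL42 was not, at 0.07 ± 0.08. New on it were MRPS10 and MRPS35 (-0.19 and -0.20), small subunit genes of low GC content, and MRPL40 (0.19), a large subunit gene of high GC content. What gave rise to the trend with GC content, in the members and in all genes, was not tested.

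The members moved together between libraries, and more so than between the groups. For each member, log2 CPM in a library was compared with its mean over the 6 libraries. The median over members was -0.19 in NT replicate 1, 0.09 in NT replicate 2 and 0.11 in NT replicate 3, and -0.06, -0.08 and 0.11 in TAR replicates 1 to 3. Each group held low and high libraries, and the group means of these medians differed by -0.02. NT replicate 1 was below the members' own mean for 69 of 76 genes, and TAR replicates 1 and 2 for 51 and 54. The other 3 libraries were below it for 13 to 22 genes. Large and small subunit genes moved in parallel, at -0.22 and -0.16 in NT replicate 1 and 0.14 and 0.09 in TAR replicate 3. Over all genes tested the medians stayed between -0.01 and 0.01. The scaling of the libraries (TMM) brings these medians near 0, so they are no independent comparison.

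NT replicate 1 gave the lowest value of 48 members and the highest of 1, and NT replicate 3 the highest of 32. The 3 libraries in which the members were low were those with a 7SK share below 1%. They also had the smallest shares of cytosolic ribosomal protein mRNAs, 3.33% in NT replicate 1, 3.46% in TAR replicate 1 and 3.64% in TAR replicate 2, against 4.54% to 5.05% in the others. Correction for GC content left the members' medians at -0.18, 0.07 and 0.13 in NT and -0.06, -0.06 and 0.10 in TAR. What sets these libraries apart was not tested.

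**Figure D3:**
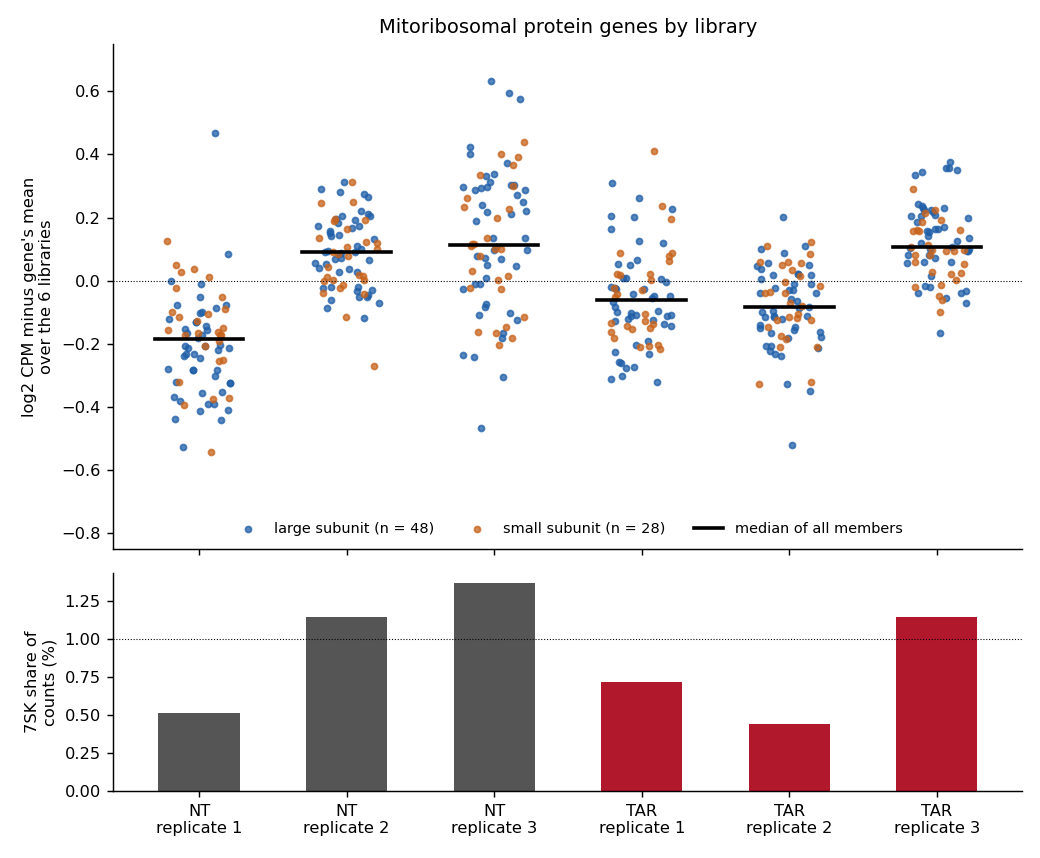
Top, log2 CPM of each member minus its mean over the 6 libraries, with the median of all 76 members as a black line, blue for large and orange for small subunit genes. Bottom, share of counts of 7SK (%), grey for NT and red for TAR, with a dotted line at 1%. The 3 libraries with medians below 0 (-0.19, -0.06 and -0.08) are those with a 7SK share below 1%.

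The comparison was different with NT replicate 1 left out. Without it edgeR called 10 members, 13.2%, against 8.98% of all 20102 genes then tested. MRPL42 was higher, and MRPL2, MRPL10, MRPL11, MRPL37, MRPL49, MRPS16, MRPS18A, MRPS18B and MRPS34 were lower. MRPL11 helps to form the base of the factor-binding stalk together with MRPL10, and MRPS16, a member with a same-strand overlap (DNAJC9), belongs to the small subunit body. The members' median log2 fold change became -0.13 (large subunit -0.14, small subunit -0.10), that of all genes 0.0085. Log2 fold changes were then -0.50 for MRPS18A (adjusted p = 0.0121), -0.44 for MRPL11 (0.03), -0.37 for MRPL10 (0.023) and 0.31 for MRPL42 (0.0332).

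Both NT libraries that remain have a 7SK share above 1%, as 1 of the 3 TAR libraries has. With all 6 libraries and a term for this split, 2 members were called (2.63%, against 3.62% of all genes), MRPL10 lower and MRPL42 higher, and the members' median turned to 0.08. With GC correction added to this term, 0 members were called. At an unadjusted p under 0.05 that fit had 21 members (27.6%, against 11.4% of all genes), 18 of them higher. Leaving out any other single library gave 0 called members (edgeR). At an unadjusted p under 0.05 it left 5 to 9 members, 6.58% to 11.8%, against 9.01% to 14.7% of all genes. The members' median log2 fold change was also negative without TAR replicate 3, at -0.11, and turned positive without NT replicates 2 and 3 (0.02 and 0.05) and TAR replicates 1 and 2 (0.01 and 0.02).

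The 5 mitoribosomal proteins with other symbols did not differ detectably. PTCD3, a small subunit protein with RNA-binding repeats, had 175.2, 176.7 and 166.8 CPM in NT and 189.9, 190.5 and 184.1 in TAR, higher in every TAR library by 1.09-fold (log2 fold change 0.12 ± 0.08 SE, edgeR adjusted p = 0.447). DAP3, a GTP-binding protein of the small subunit, had 154.1 ± 12.7 CPM in NT and 144.2 ± 11.7 in TAR (SD, n = 3 each). AURKAIP1, CHCHD1 and GADD45GIP1 had log2 fold changes of -0.19, 0.07 and -0.11, each smaller than its SE. None of the 5 had an unadjusted p under 0.05, against 16.1% of all genes.

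The 27 genes that build the mitoribosome and mature its rRNAs had log2 fold changes with a median of -0.05, with 2 higher and 2 lower at an unadjusted p under 0.05 (of all genes, 10% were higher and 6.09% lower) and 0 called. After GC correction none of them had an unadjusted p under 0.05, against 7.08% of all genes. GTPBP10, a GTPase of large subunit assembly, measured 40.8, 37.8 and 32.8 CPM in NT and 50.1, 47.6 and 43.1 in TAR (log2 fold change 0.34 ± 0.10 SE, edgeR adjusted p = 0.202). The methyltransferase METTL15 was at 0.34. After GC correction GTPBP10 was at 0.07 and METTL15 at 0.12. ERAL1, the chaperone of the small subunit rRNA, was at -0.29 and DHX30, an RNA helicase, at -0.24.

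Among 16 mitochondrial translation factors and mRNA partners, the median was 0.09. At an unadjusted p under 0.05, 4 of the 16 were higher, against 10% of all genes. These were the elongation factor GFM1 (0.31 ± 0.08 SE), the mRNA stabiliser LRPPRC (0.29 ± 0.08), GUF1 (0.34) and the release factor MTRF1L (0.24), with GC contents between 39.8% and 44.2%. LRPPRC measured 262.9, 276.9 and 259.0 CPM in NT and 310.7, 337.9 and 330.8 in TAR. After GC correction 1 of the 16 had an unadjusted p under 0.05, against 7.08% of all genes, and the median was -0.0092.

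Of 6 mitochondrial transcription genes, TFAM encodes a protein that packages mitochondrial DNA and takes part in its transcription. TFAM measured 79.7, 79.8 and 68.1 CPM in NT and 103.8, 94.4 and 94.0 in TAR (log2 fold change 0.36 ± 0.09 SE, edgeR adjusted p = 0.193). MTERF1 was at 0.42 and the mitochondrial RNA polymerase POLRMT at -0.22, with transcripts of 38.01% and 66.3% GC. After GC correction TFAM was at 0.16, MTERF1 at 0.18 and POLRMT at -0.04. Among 10 regulators, GABPA was at 0.30 (adjusted p = 0.234) and the most abundant, SP1, at -0.14. GABPA transcripts had a GC content of 35.7%, and its GC-corrected value was 0.01.

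The mRNAs translated by the mitoribosome did not differ detectably between the groups. Log2 fold changes of the 13 mRNAs of mitochondrial DNA had a median of 0.0073, with 7 above 0. None had an unadjusted p under 0.05, against 16.1% of all genes. After GC correction the median was -0.077, with 1 of the 13 above 0. Again none had an unadjusted p under 0.05, against 7.08% of all genes. They made up 0.918%, 0.912% and 0.772% of counts in NT replicates 1 to 3 and 0.779%, 0.805% and 0.925% in TAR replicates 1 to 3. The libraries with low mitoribosomal protein mRNAs, NT replicate 1 and TAR replicates 1 and 2, held high and low values of this share.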

How the data were processed

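Poly(A)-enriched, strand-marked RNA libraries of HEK293T cells were sequenced. The authors deposited raw counts per gene. The submitters' processing notes list STAR 2.7.4a, cutadapt 4.4 and the build hg19 (GRCh37). How reads were assigned to genes, and whether strand was used, is unknown here. Symbols, coordinates, length and GC content come from GENCODE release 29 on GRCh38, matched by identifier without version, and start-site sequences from RefSeq.

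The 2 groups were compared by edgeR 4.0.16 (R 4.3.3; TMM, filterByExpr, robust quasi-likelihood F test, no covariate). Adjustment was by Benjamini-Hochberg over 19676 genes, with calls under 0.05. CPM are after TMM scaling, and deviations use log2 CPM with a prior count of 2. The GC correction removed a loess trend (span 0.5) from each library. GC content was known for 96% of the genes tested. P-values measure the spread between 3 libraries a group, and the common coefficient of variation was 0.113.

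Alternatives were other scalings and filters, DESeq2 1.42.0, limma-voom (limma 3.58.1), a replicate block, GC correction, a 7SK term (alone, or with GC correction, the latter chosen after seeing the data), each library left out, and the longest transcript as length (also chosen after). The members and lists were chosen with earlier results of these data known. Named were the 5 smallest p in each direction, the 3 highest and lowest of each subunit, the S18 paralogs, members whose symbol and structure differ, and the leading and most abundant gene of each list. Other genes were named after their values were seen. No sequence of a protein was used here.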

Additional observations from a re-analysis of the deposited data

How the results depend on the processing

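Over all genes, edgeR called 2 as reported, 1 with library sizes alone, 1 with a mean CPM of at least 5, 1 with the GC content correction, 597 without a filter, 712 with the 7SK term, 34 with the 7SK term and GC correction, and DESeq2 called 169. Leaving out a library gave 1 to 1806 called genes, 0 to 10 called members and 5 to 28 members with an unadjusted p under 0.05, the highest of each without NT replicate 1. Called members were 2 of 76 without a filter (MRPS18A and MRPL10), where 1.68% of all genes were called. With the 7SK term they were also 2 of 76, where 3.62% of all genes were called. Members with an unadjusted p under 0.05 were 5 with the GC correction and 21 with the 7SK term and GC correction, 18 of them higher. The latter were 27.6% of members, against 11.4% of all genes, with 0 members called.

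The replicate block gave 1209 called genes (6.14% of those tested). It called 4 of the 76 members (MRPL42 higher, MRPL10, MRPL37 and MRPS18A lower). With the GC correction the block gave 17 genes (0.0864%) and 0 members. The deviations of same-numbered libraries from their group means had correlations of 0.356, -0.018 and 0.55. Differently numbered libraries were not compared, so these values cannot decide whether the numbers pair the libraries. The main fit was made without pairing. The change in the log2 ratio of large to small subunit counts was 0.02, and 0.064 without the most abundant member of each.

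Directions turned for these genes. With the GC correction, the block with it, and the 7SK term with it, the values were 0.0027, 0.0059 and 0.0623 for MRPL53 and -0.18, -0.17 and -0.10 for MRPS36. With the 7SK term and GC correction, MRPS34 was 0.13, MRPS30 -0.0071 and MT-ATP8 -0.022. MRPS23 was 0.14 with the 7SK term and 0.10 with GC correction added. AURKAIP1 was 0.0069 with block and GC correction, 0.0878 with the 7SK term and 0.22 with both. CHCHD1 was -0.0025 and -0.0045 with the GC correction without and with the block. GADD45GIP1 was 0.0461, 0.0651, 0.14 and 0.25 under the GC correction, the block with it, the 7SK term and that term with it. Leaving out a library gave ranges of -0.21 to 0.0461 for MRPL53, -0.0893 to 0.12 for MRPL38, -0.23 to 0.0622 for MRPS23, -0.0137 to 0.0819 for MRPS30, -0.0292 to 0.099 for MRPS36, -0.46 to 0.0584 for AURKAIP1, -0.10 to 0.20 for CHCHD1, -0.34 to 0.13 for GADD45GIP1, -2.01 to 0.88 for MT-RNR1 and -1.63 to 0.80 for MT-RNR2. The causes were not tested. Depth limits MRPL30 and MRPS24, with at most 14 and 27 counts in a library.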
